A study of Mus musculus with 51 samples.

Results

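The regions described here are 1718 H3K4me3 peaks of mouse epiblast that had no counterpart among the H3K4me3 peaks of extra-embryonic ectoderm (ExE), out of 33329 autosomal H3K4me3 peaks in epiblast. They were chosen by the deposited peak calls: an epiblast peak was kept if it overlapped a peak of both wild-type epiblast lists, one for each direction of the cross, and no peak of either wild-type ExE list. Of the other epiblast peaks, 19486 were in both epiblast lists and both ExE lists and are called shared peaks below, 2631 were in both epiblast lists and 1 ExE list, and 9494 were in only 1 epiblast list. Because the wild-type H3K4me3 libraries chose these peaks, the difference in wild-type H3K4me3 between the tissues is given as a description without a test.

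Chromatin was profiled by ultra low-input native ChIP-seq at embryonic day 6.5, in pools of 4 epiblasts or 8 ExE separated by hand. The embryos were F1 hybrids of C57BL6/Babr (B6) and CAST/EiJ (CAST), with the mother named first: B6/CAST and CAST/B6 carried wild-type alleles. The matDKO/CAST embryos came from B6/129 mothers in which Zp3-cre, active in growing oocytes, had deleted floxed Dnmt3a and Dnmt3b, so that the oocyte lacked both de novo DNA methyltransferases and the embryo received a deleted maternal copy with an intact CAST paternal copy. Each of the 18 combinations of cross, tissue and mark (H3K4me3, H3K27me3 and H3K36me3) had 2 libraries, which makes 36 ChIP libraries beside 15 inputs. Replicates were separate pools of embryos, so the p-values measure the spread between these pools.

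H3K4me3 marks active and poised gene starts and, at lower levels, some distal elements. It is deposited most readily at CpG islands, which stay free of DNA methylation, whereas regions poor in CpG carry it in fewer tissues. H3K27me3 is the mark of Polycomb repressive complex 2 and is found at silent developmental genes and over broad silent domains, and H3K36me3 follows transcription through gene bodies. The epiblast gives rise to the embryo proper and forms the germ layers at gastrulation, while the ExE is a trophoblast tissue that contributes to the placenta.

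Sequencing depth was 4.01 to 17.9 M reads for H3K4me3, 3.68 to 22.9 M reads for H3K27me3, 2.09 to 12.6 M reads for H3K36me3 and 7.17 to 90.6 M reads for the inputs. Start sites of epiblast marker genes carried more H3K4me3 in every epiblast library, matDKO/CAST included, than in every ExE library for 6 of 10 genes, and the opposite held for Dppa4. Summed over the 10 genes, the level was 167 to 239 RPKM (reads per kilobase, scaled to library size) in epiblast and 65.8 to 120 in ExE. Of 12 ExE markers, Cdx2, Tfap2c and Bmp4 were higher in every ExE library, and Elf5 was near 0 in both tissues. Esrrb was low in both tissues, at 0.481 to 1.08 RPKM in epiblast and 0 to 0.393 in ExE, and higher in every epiblast library. It was read at a start in an epiblast-only peak, so its wild-type order follows from how the peaks were chosen. The paper names Esrrb among genes known to be preferentially expressed in ExE. The summed level over these 12 was 155 to 229 in epiblast and 184 to 295 in ExE, so the ranges overlapped. Of 15 visceral endoderm markers, Ttr, Apoa1, Apob, Cubn and Gata4 were higher in every ExE library, Sox17 and Cer1 in every epiblast library, and the summed level was 84.3 to 139 in epiblast and 106 to 169 in ExE. Cer1, too, was read in an epiblast-only peak. The part that visceral endoderm plays in the values below was not tested, and a smaller share of cells with a mark cannot be told apart from less of the mark in each cell.

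Epiblast-only peaks were poor in CpG and lay away from gene starts. Their median CpG observed-to-expected ratio, the number of CpGs relative to the product of C and G content, was 0.224 in the central 1000 bp, against 0.268 in peaks with 1 ExE list and 0.453 in shared peaks. A ratio above 0.6 was found in 0.175% of epiblast-only peaks and in 34.2% of shared peaks. The central 1000 bp held a median of 13 CpGs, against 29 in shared peaks and 19 in all epiblast peaks. GC content was 47.5%, against 52.9% in shared peaks, and masked repeats covered 15.3%, against 10.8%. Peaks were 2500 bp long at the median and ranged from 500 to 11500 bp, and shared peaks were 4000 bp long.

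Transcription start sites were found in 192 of the epiblast-only peaks (11.2%), against 72.2% of shared peaks and 46.8% of all epiblast peaks. For 146 of these the start belonged to a protein-coding gene and for the other 46 to a noncoding gene. Of the 148 protein-coding genes with a start in an epiblast-only peak, only 58 had no start in another epiblast peak. Another 167 peaks (9.72%) touched an exon, 540 (31.4%) lay in an intron and 819 (47.7%) were intergenic. Of the start sites, 4 belonged to genes of developmental lists: Cer1, a secreted antagonist of Nodal, BMP and Wnt signals, Esrrb, a nuclear receptor of naive pluripotency and of trophoblast stem cells, Gli2, a transcription factor of the Hedgehog pathway, and Neurod4, a neural basic helix-loop-helix factor. The highest H3K4me3 at a start site was at Syn3, a synaptic vesicle protein. The 200 bases before these starts are shown to make the low CpG content visible, with every CpG in capitals, beside the start of Fgf5, an epiblast gene in a shared peak (GRCm38, RefSeq sequence, 5′ to 3′ on the strand of the gene).
Cer1 chr4:82885149-82885348 minus strand: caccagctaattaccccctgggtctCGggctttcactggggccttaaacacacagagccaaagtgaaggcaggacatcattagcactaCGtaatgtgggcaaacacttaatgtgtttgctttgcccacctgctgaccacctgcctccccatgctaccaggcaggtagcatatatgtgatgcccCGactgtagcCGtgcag
Esrrb chr12:86360917-86361116 plus strand: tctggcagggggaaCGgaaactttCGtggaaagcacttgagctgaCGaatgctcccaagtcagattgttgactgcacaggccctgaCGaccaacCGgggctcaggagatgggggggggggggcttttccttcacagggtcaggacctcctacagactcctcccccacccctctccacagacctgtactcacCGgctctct
Gli2 chr1:118982589-118982788 minus strand: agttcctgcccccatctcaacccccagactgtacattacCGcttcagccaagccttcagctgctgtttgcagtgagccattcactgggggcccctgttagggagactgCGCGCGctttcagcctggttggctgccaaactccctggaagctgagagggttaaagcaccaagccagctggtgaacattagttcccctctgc
Neurod4 chr10:130280241-130280440 minus strand: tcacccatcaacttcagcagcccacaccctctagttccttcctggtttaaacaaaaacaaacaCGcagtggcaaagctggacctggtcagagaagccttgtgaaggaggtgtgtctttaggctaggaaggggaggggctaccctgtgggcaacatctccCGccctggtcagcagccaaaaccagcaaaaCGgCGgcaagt
Syn3 chr10:86491898-86492097 minus strand: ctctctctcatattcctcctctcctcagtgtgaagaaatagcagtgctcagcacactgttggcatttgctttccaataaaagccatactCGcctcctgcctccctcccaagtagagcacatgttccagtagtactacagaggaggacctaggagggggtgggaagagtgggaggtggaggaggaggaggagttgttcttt
Fgf5 chr5:98253984-98254183 plus strand: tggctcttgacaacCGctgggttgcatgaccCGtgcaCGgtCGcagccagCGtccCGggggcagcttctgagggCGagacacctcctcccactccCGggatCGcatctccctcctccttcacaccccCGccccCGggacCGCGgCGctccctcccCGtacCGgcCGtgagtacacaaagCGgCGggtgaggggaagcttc

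The stretches before Cer1, Gli2 and Neurod4 held 4 CpGs each, that of Esrrb 6 and that of Syn3 1. The stretch before Fgf5 held 19. At Syn3 the central 1000 bp had a CpG observed-to-expected ratio of 0.067.

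Short motifs of transcription factors were counted on both strands in the central 1000 bp of each peak. The octamer ATGCAAAT, bound by POU factors such as OCT4, occurred in 187 of 1718 peaks (10.9%), in 8.67% of peaks with 1 ExE list, in 4.40% of shared peaks and in 6.31% of all epiblast peaks. CATTGTT, a SOX motif, occurred in 266 (15.5%), in 13.6% of peaks with 1 ExE list, in 9.46% of shared peaks and in 11.7% of all. CATTCCA, the motif of the TEAD factors, occurred in 260 (15.1%), in 14.2% of peaks with 1 ExE list, in 12.3% of shared peaks and in 13.6% of all. Base composition differs between these sets, and its part in the counts was not tested. The composite of both, CATTGT directly or 1 base before the octamer, contains the octamer and can overlap the SOX motif, and it was found in 1 epiblast-only peak and in 2 of all epiblast peaks. The 3 octamer peaks with the highest H3K4me3 and the composite peak are shown as 80 bases around the motif in capitals.
Dclk1 intron chr3:55424060-55424139 minus strand: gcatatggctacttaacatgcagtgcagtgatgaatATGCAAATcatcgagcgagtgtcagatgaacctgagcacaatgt
Thnsl2 10972 bp away chr6:71119558-71119637 plus strand: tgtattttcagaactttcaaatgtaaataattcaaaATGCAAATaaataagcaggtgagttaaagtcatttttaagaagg
Zcchc7 intron chr4:44783890-44783969 minus strand: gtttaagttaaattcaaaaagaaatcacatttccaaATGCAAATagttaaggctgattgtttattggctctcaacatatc
Galnt17 intron chr5:131177328-131177407 plus strand: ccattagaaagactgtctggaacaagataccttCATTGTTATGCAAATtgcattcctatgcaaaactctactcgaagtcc

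The peak in Dclk1, a microtubule-associated kinase of developing neurons, had 1.97 RPKM of wild-type H3K4me3 in epiblast and 0.461 in ExE. Near Thnsl2 the means were 1.84 and 0.479, and in Zcchc7 1.77 and 0.319. The composite peak in Galnt17 was weaker, with 0.298 and 0.614 RPKM in the B6/CAST epiblast libraries, 0.380 and 0.672 in CAST/B6 epiblast and 0.184 to 0.344 in the 4 wild-type ExE libraries. The lower B6/CAST epiblast library lay within the range of ExE.

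Most epiblast-only peaks lay far from promoters. The 1526 peaks without a start site were a median of 36179.5 bp from the nearest start of a protein-coding gene, against 23946.5 bp for all epiblast peaks without a start site and 18615 bp for shared ones. Within 50 kb of such a start were 880 (57.7%), nearest to 804 genes. Ntrk3, a neurotrophin receptor, and Tenm4, a teneurin, had 4 each, and Ces5a, Dclk1, Gabbr2, Kcnq3, Pdzrn4, Pknox2, Rnf220 and Tnfrsf19 had 3 each. The nearest ExE peak was a median of 18000 bp away.

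Among 516 genes in 11 lists, a start in an epiblast-only peak was found for Esrrb, Cer1, Neurod4 and Gli2 alone. Esrrb and Gli2, like Syn3, also had a start in another epiblast peak, so the starts described here are not their only ones. Most other listed genes had their start in a shared peak, as 68 of 69 neural genes, 46 of 51 pluripotency genes and all 39 Hox genes did. Only 15 of 44 germline genes did. Of the 69 neural and ectodermal genes, 14 (20.3%) were the gene nearest to an epiblast-only peak within 50 kb, against 4.34% of the 17434 protein-coding genes measured over their bodies. They were the homeobox genes Barhl2, Emx1, Emx2, Gbx2 and Lmx1a, the paired box genes Pax2, Pax7 and Pax8, the SOX genes Sox1, Sox11 and Sox21, Olig1, Olig2 and the adhesion molecule Ncam1. Of 47 gastrulation genes, 6 (12.8%) were near a peak, namely Dkk1, Foxc1, Gata4, Mesp1, Noto and Sp8.

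The shares of the other lists were nearer to that of all genes, at 0% to 6.50%. For 123 signalling genes the number was 8 (Dkk1, Fzd10, Gli2, Ptch1, Sfrp1, Smad6, Wnt11 and Wnt7a), for 51 pluripotency genes 3 (Foxd3, Igfbp2 and Tcl1), for 32 trophoblast genes 2 (Pcsk6 and Tead4) and for 33 visceral endoderm genes 2 (Dkk1 and Gata4). Among 69 known imprinted genes Blcap, Mest, Smoc1 and Zfp64 were near a peak, among 31 Polycomb subunits Aebp2 and Yaf2, and among 44 germline genes Meioc. None of the 13 DNA methylation genes or the 39 Hox genes was.

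H3K4me3 at these peaks was low. The median over the 1718 peaks was 0.672 to 0.728 RPKM in 3 wild-type epiblast libraries and 1.18 in B6/CAST replicate 2, and 0.281 to 0.397 in the 4 wild-type ExE libraries. Shared peaks had 5.26 to 7.27 RPKM in epiblast and 3.98 to 6.39 in ExE. The inputs, which show how DNA was recovered without antibody, had 0.466 to 0.536 at epiblast-only peaks, so that every wild-type epiblast library lay above the inputs and every ExE library below them. In windows outside all peaks the mean was 0.0648 to 0.146 in epiblast and 0.0872 to 0.190 in ExE. In ExE, too, the median over the peaks was above that background in every library.

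The profile around the peak centres showed the same difference in space. At the centre the mean was 1.05 to 1.90 RPKM in wild-type epiblast and 0.378 to 0.540 in wild-type ExE, with 0.621 to 0.663 and 0.552 to 0.586 at a distance of 15 to 20 kb. Other H3K4me3 peaks were not removed from the windows at that distance, so their level is not the background outside peaks. H3K27me3 at the centre was 1.10 to 1.14 times the level at 15 to 20 kb in wild-type ExE and 0.846 to 0.918 times in wild-type epiblast. The wild-type inputs were at 0.917 to 1.00 times, so that ExE H3K27me3 lay above every input at the centre, while epiblast H3K27me3 reached into the range of the inputs.

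**Figure D1:**
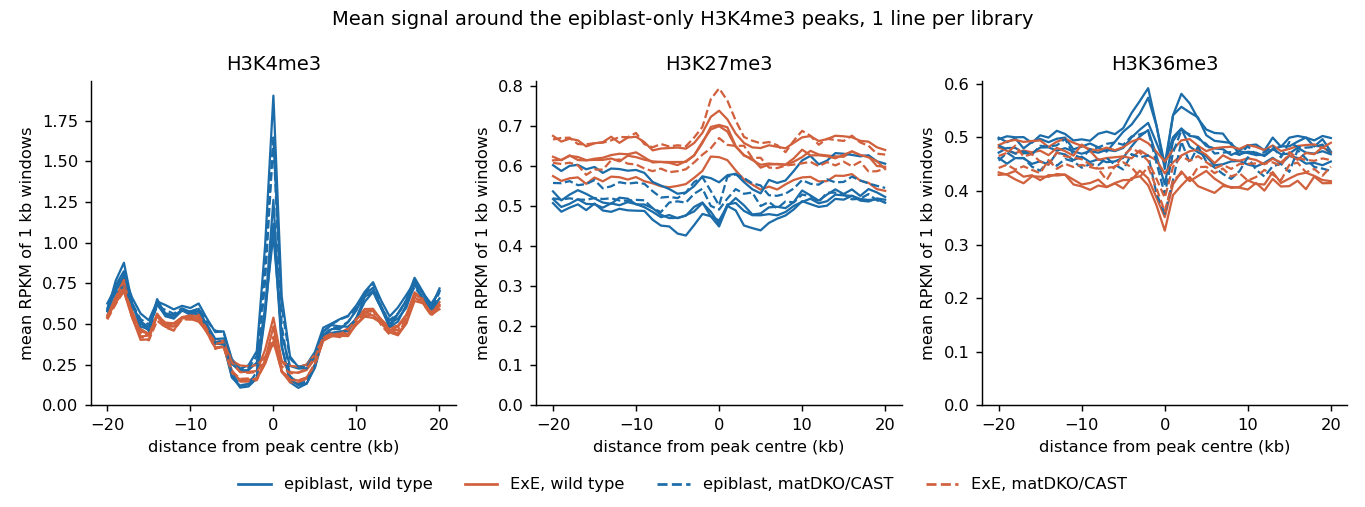
Mean signal of each ChIP library in 1 kb windows (RPKM, vertical axis) against distance from the centre of the 1718 peaks in kb (horizontal axis), with wild-type libraries as solid lines, matDKO/CAST as dashed lines, epiblast in blue and ExE in red. H3K4me3 at the centre was 1.05 to 1.90 in wild-type epiblast and 0.378 to 0.540 in wild-type ExE, and only the ExE libraries had more H3K27me3 at the centre than at 15 to 20 kb.

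Among the peaks with the highest H3K4me3, Smug1 encodes a uracil-DNA glycosylase, and its peak lay 2 bp from the annotated start and touched an exon (chr15:103155001-103158000). H3K4me3 there was 2.46 and 4.00 RPKM in B6/CAST epiblast, 1.97 and 2.84 in CAST/B6 epiblast, 0.516 and 0.552 in B6/CAST ExE and 0.375 and 0.785 in CAST/B6 ExE. All 4 epiblast libraries were above all 4 ExE libraries. The exon of Drc3, a part of the ciliary dynein regulatory complex, had 2.98 ± 0.475 RPKM (SD, n = 4) in epiblast and 0.617 ± 0.185 in ExE. An intron of Slc6a11, a GABA transporter, had 2.42 ± 0.823 and 0.327 ± 0.129.

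At the Syn3 start (chr10:86491001-86493000) H3K4me3 was 2.47 ± 0.491 RPKM in epiblast and 0.595 ± 0.109 in ExE (SD, n = 4). The highest mean of all, 3.08 ± 1.29, was in an intergenic peak 7532 bp from Lemd2 (chr17:27212001-27213500), where the median input was also high at 1.82 RPKM. The longest peaks were at Cdyl (11500 bp, at a start), Ntrk2 (10500 bp), Tfb1m (10000 bp, intergenic), Pknox2 (9500 bp) and Krt80 (9500 bp, at a start). At Cdyl, a chromodomain protein, H3K4me3 was 0.350 to 0.790 RPKM in the wild-type epiblast libraries and 0.249 to 0.344 in ExE, so that length did not go with a high level there.

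At the edge of the rule, 6 peaks touched an ExE peak without overlapping it, and 86 other epiblast peaks were left out for an overlap of 500 bp. The peak near Adgrg6 (chr10:14570001-14573000), just inside, had 0.354 and 0.591 RPKM in B6/CAST epiblast, 0.354 and 0.598 in CAST/B6 epiblast and 0.138 to 0.210 in ExE. Also inside were Slc18b1, with 0.380 to 1.05 in epiblast and 0.167 to 0.322 in ExE, and Arap3, with 0.578 to 0.819 and 0.345 to 0.459. Just outside were peaks near Fzd7, with 0.373 to 1.41 and 0.393 to 0.746, near Tns1, with 0.466 to 0.978 and 0.140 to 0.402, and near Nyap2, with 0.152 to 1.42 and 0.229 to 0.460. Peaks on either side of the edge thus had similar levels in epiblast, and the ranges of the tissues overlapped in Fzd7 and Nyap2.

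The matDKO/CAST embryos gave 4 H3K4me3 libraries that the rule did not use, and there the tissue difference was present again. The median over the 1718 peaks was 0.945 and 0.998 RPKM in epiblast and 0.277 and 0.304 in ExE, and every epiblast library was above every ExE library at 1581 peaks (92.0%), against 44.1% of all epiblast peaks. The limma test on log2(RPKM + 0.5), fitted to all 33329 peaks, called H3K4me3 lower in ExE at 1257 of 1718 peaks (73.2%), against 26.1% of all epiblast peaks, and higher at 0, against 5.96%. The median log2 difference, ExE minus epiblast, was -0.90, against -0.17 over all epiblast peaks, and 1701 of the 1718 differences were negative. The unadjusted p was under 0.05 at 1403 peaks, against 13375 of all 33329, and edgeR on recovered reads also called 0 higher.

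The share called lower was 51.3% in peaks with 1 ExE list and 18.8% in shared peaks. Centring the libraries on the median of all peaks left 956 calls, as did edgeR on recovered reads. The count rested on both ExE libraries: it was 297 without matDKO/CAST ExE replicate 2 and 355 without ExE replicate 3. Whether wild-type and matDKO/CAST differ at the peaks was not tested for H3K4me3.

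The largest fall was at Smug1, with 4.07 and 4.16 RPKM in matDKO/CAST epiblast and 0.152 and 0.514 in ExE (log2 difference -2.51, adjusted p = 1.06e-14, limma). Distal peaks nearest to Gbx2 and Pax7, homeobox and paired box genes of neural development, were also among the 5 largest falls. The peak 29822 bp from the Gbx2 start (chr1:89961001-89963500) had 1.80 and 2.41 in epiblast and 0.152 and 0.198 in ExE (-1.94), and the peak 24473 bp from Pax7 (chr4:139858001-139860000) had 1.62 and 3.24 against 0.228 and 0.237 (-1.94). A peak 97454 bp from Got2 (-2.09) and the Slc6a11 intron (-2.04) made up the rest. In each of the 5 both epiblast libraries were above both ExE libraries.

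**Figure D2:**
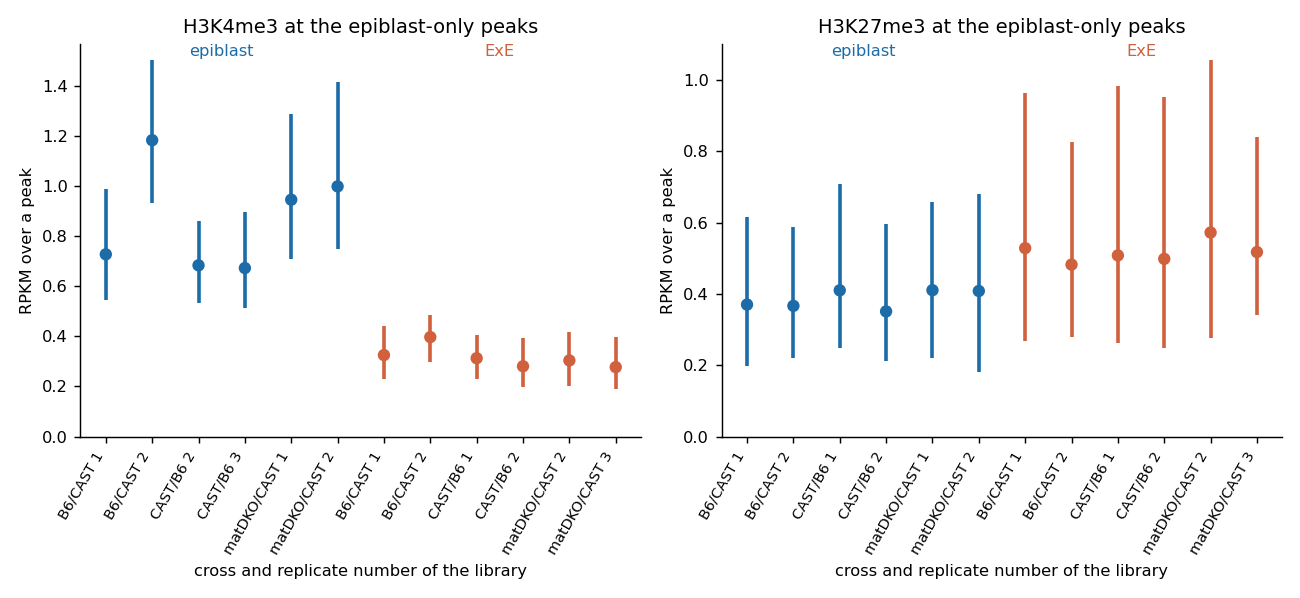
H3K4me3 (left) and H3K27me3 (right) over the 1718 peaks in each library, in RPKM over a peak, with points at the median and bars from the lower to the upper quartile over peaks. Epiblast libraries are blue and ExE libraries red, and the median H3K27me3 was 0.351 to 0.410 in wild-type epiblast and 0.482 to 0.528 in wild-type ExE.

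H3K27me3 was higher in ExE than in epiblast at many of these peaks, and lower at few. The wild-type medians were 0.351 to 0.410 RPKM in the 4 epiblast libraries and 0.482 to 0.528 in the 4 ExE libraries, without overlap, and matDKO/CAST had 0.408 and 0.410 in epiblast and 0.517 and 0.572 in ExE. The inputs had 0.466 to 0.536 at these peaks, so the wild-type medians of ExE lay within the inputs and those of epiblast below them. In windows outside all H3K4me3 peaks, wild-type H3K27me3 was 0.305 to 0.359 in epiblast and 0.368 to 0.387 in ExE, also without overlap. In the limma fit to all 33329 peaks, 431 of 1718 (25.1%) were higher in wild-type ExE, against 12.8% of all epiblast peaks, and 29 (1.69%) were lower, against 10.2%. The median log2 difference was 0.18, against 0.0051 over all epiblast peaks. All 4 ExE libraries were above all 4 epiblast libraries at 433 peaks (25.2%, against 14% of all), and the reverse held at 46 (2.68%, against 11.3% of all).

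Without B6/CAST ExE replicate 1 the number higher was 231, without CAST/B6 epiblast replicate 2 it was 243, and without CAST/B6 ExE replicate 1, CAST/B6 ExE replicate 2 or B6/CAST epiblast replicate 2 it was 262. The number lower was 18 without B6/CAST epiblast replicate 2 and 48 without B6/CAST epiblast replicate 1, and it was 49 with centred libraries, 56 in edgeR, 55 with the 8 wild-type libraries alone and 60 with the replicate number as a block. Within 1 cross, which leaves 2 libraries a tissue, 81 were higher in B6/CAST and 175 in CAST/B6.

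**Figure D3:**
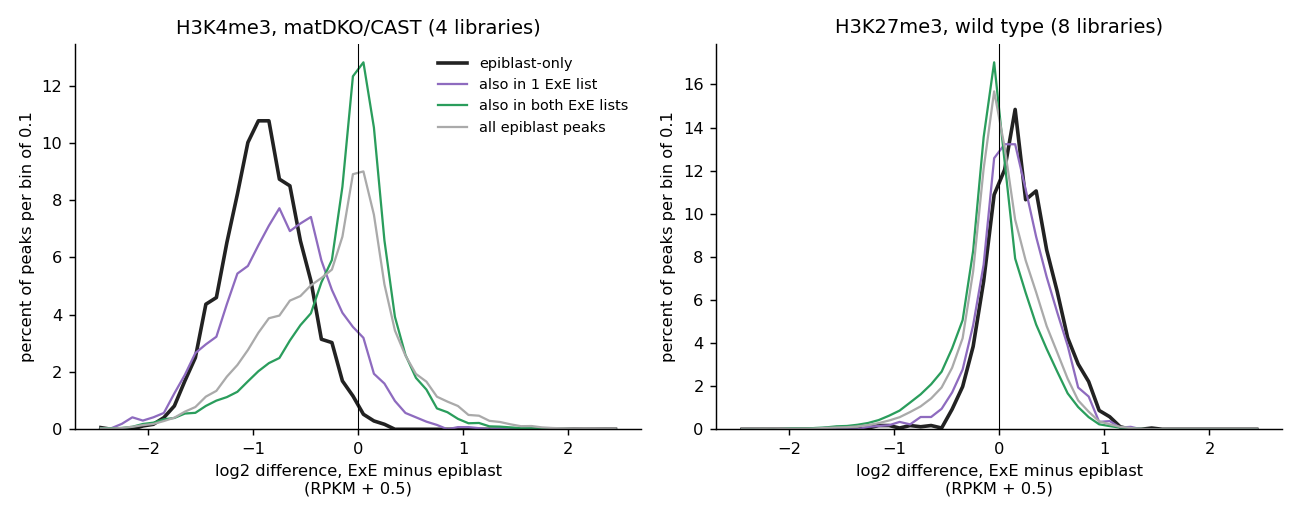
Share of peaks (percent per bin of 0.1) against the log2 difference of RPKM + 0.5, ExE minus epiblast, for H3K4me3 in the 4 matDKO/CAST libraries (left) and H3K27me3 in the 8 wild-type libraries (right). The black line of epiblast-only peaks has its median at -0.90 for H3K4me3 and 0.18 for H3K27me3, to the left and to the right of the grey line of all epiblast peaks, with medians of -0.17 and 0.0051.

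By position relative to genes, H3K27me3 was higher in ExE at 64 of the 192 peaks with a start site (33.3%, against 8.91% of all epiblast peaks with one) and lower at 3, against 15.3% of all. It was higher at 37 of 167 exonic peaks (22.2%, against 17.9%) and lower at 4 (against 6.67%). It was higher at 124 of 540 intronic peaks (23.0%, against 14.96%) and lower at 4 (against 3.30%), and higher at 206 of 819 intergenic peaks (25.2%, against 16.3%) and lower at 18 (against 6.59%). Among peaks without a start site the share was 24.0% for epiblast-only peaks and 16.1% for all epiblast peaks, with 19.4% for peaks with 1 ExE list and 14.6% for shared peaks. Start sites included, it was 9.60% for shared peaks. Of the peaks with the octamer 40 of 187 (21.4%) were higher, and of those without it 391 of 1531 (25.5%).

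The deposited H3K27me3 peak lists divided the peaks further. Outside every H3K27me3 list lay 874 (50.9%), against 49.2% of all epiblast peaks, and 63 of the 874 (7.21%) were called higher in ExE, against 2.29% of all epiblast peaks outside every list. A peak in both ExE lists and no epiblast list covered 398 (23.2%), against 14% of all epiblast peaks, 19.9% of peaks with 1 ExE list and 10.8% of shared peaks, and H3K27me3 was called higher in ExE at 226 of these 398 (56.8%), with a median log2 difference of 0.47, which describes this choice, since the lists were made from the libraries compared. H3K27me3 in both tissues covered 250 (14.6%), against 27.6% of all epiblast peaks, 23.6% of peaks with 1 ExE list and 37.6% of shared peaks, and H3K27me3 in epiblast alone covered 15 (0.873%, against 1.62% of all). A further 181 lay in the ExE list of 1 cross (10.54%, against 7.57% of all).

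Among peaks with a start site, Myom1, which encodes the sarcomere protein myomesin, had the largest increase (chr17:71018501-71021000). H3K27me3 there was 0.543 and 0.586 RPKM in B6/CAST epiblast, 0.786 and 0.530 in CAST/B6 epiblast, 1.70 and 1.40 in B6/CAST ExE and 1.98 and 2.06 in CAST/B6 ExE. All ExE libraries were above all epiblast libraries, and the log2 difference was 1.04 ± 0.153 (SE, adjusted p = 6.24e-05, limma). Stra6, the receptor for retinol uptake, had 0.703, 0.357, 0.708 and 0.538 RPKM in the epiblast libraries and 1.35, 1.14, 2.15 and 1.41 in ExE (0.89, adjusted p = 0.00216). Arid3a, a DNA-binding protein, had 0.118 to 0.632 in epiblast and 0.840 to 1.32 in ExE (0.91, adjusted p = 0.000476).

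Other starts with more H3K27me3 in ExE belonged to Cldn19, a tight junction claudin (log2 difference 0.98), Gm536 (0.92), Hc, which encodes complement C5 (0.90), Fa2h, a fatty acid hydroxylase (0.87), and Gm4491 (0.87), with adjusted p between 0.000294 and 0.00344 for Cldn19, Hc, Fa2h and Gm4491. At Syn3 H3K27me3 was 0.222 to 0.337 RPKM in epiblast and 0.448 to 1.06 in ExE (0.71, adjusted p = 0.00182, limma). At the Esrrb start (chr12:86360501-86366500) H3K27me3 was 1.30 and 0.832 in B6/CAST epiblast, 2.20 and 1.44 in CAST/B6 epiblast, 2.14 and 1.65 in B6/CAST ExE and 2.84 and 2.07 in CAST/B6 ExE. The tissues overlapped, and the log2 difference of 0.49 ± 0.175 (SE, adjusted p = 0.0473) was no longer called without any 1 of 6 libraries (both ExE libraries of each cross and replicate 2 of each epiblast), with a pseudocount of 0.1 or after centring. Without CAST/B6 epiblast replicate 2, for example, the difference was 0.37.

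The other developmental starts did not pass the test. At Cer1 the log2 difference of H3K27me3 was -0.12 (adjusted p = 0.572, limma), at Gli2 0.35 (adjusted p = 0.122) and at Neurod4 0.018 (adjusted p = 0.945), where the sign turned with centring of the libraries. For Gli2, edgeR on recovered reads gave 1.03 and called the difference. H3K4me3 at Cer1 (chr4:82882001-82887000) was 1.49 and 1.38 RPKM in B6/CAST epiblast, 3.57 and 1.97 in CAST/B6 epiblast, 0.425 and 0.704 in B6/CAST ExE and 0.375 and 0.320 in CAST/B6 ExE, with all epiblast above all ExE libraries. In matDKO/CAST it was 1.80 and 1.20 against 0.228 and 0.309 (log2 difference -1.36 ± 0.288, SE, adjusted p = 4.11e-05, limma), which was not called without ExE replicate 2 (-1.29).

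At Esrrb H3K4me3 was 1.09 and 1.53 in B6/CAST epiblast, 0.824 and 0.896 in CAST/B6 epiblast and 0.179 to 0.414 in the wild-type ExE libraries, and the matDKO/CAST difference was -1.42 (adjusted p = 1.55e-05, limma). At Neurod4 (chr10:130279501-130283000) it was 0.392 to 0.733 in wild-type epiblast and 0.203 to 0.258 in wild-type ExE, with -0.92 in matDKO/CAST (adjusted p = 0.00471), which was not called without ExE replicate 2 (-1.01) or 3 (-0.83). At Gli2 (chr1:118982501-118984500) the ranges were 0.373 to 1.16 and 0.333 to 0.483, which overlap, and the difference in matDKO/CAST was -0.46 (adjusted p = 0.197).

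Less H3K27me3 in ExE was found at 3 of the 192 peaks with a start site, against 15.3% of all epiblast peaks with one. At Bicc1, an RNA-binding protein (chr10:70946001-70951000), H3K27me3 was 1.35 and 1.74 RPKM in B6/CAST epiblast, 1.16 and 1.83 in CAST/B6 epiblast, 0.236 and 0.579 in B6/CAST ExE and 0.375 and 0.299 in CAST/B6 ExE. The 2 tissues did not overlap, and the log2 difference was -1.21 ± 0.165 (SE, adjusted p = 2.54e-05, limma). H3K4me3 in this peak was low, 0.224 to 0.928 in wild-type epiblast and 0.213 to 0.333 in ExE. The others were Gm8439 (-0.66, adjusted p = 0.00547) and Cntnap5c, of the contactin-associated family (-0.46, adjusted p = 0.0171), where 1.26 to 1.62 RPKM in epiblast stood against 0.870 to 0.951 in ExE and the call was lost without CAST/B6 epiblast replicate 2, CAST/B6 ExE replicate 1 or 2, B6/CAST epiblast replicate 2 or B6/CAST ExE replicate 1 (-0.48 to -0.44). Smug1, just beside its start, had 0.962, 1.47, 2.65 and 2.21 RPKM of H3K27me3 in epiblast and 0.456, 0.482, 1.03 and 0.928 in ExE, in the order B6/CAST and then CAST/B6 (-0.90, adjusted p = 0.000196).

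**Figure D4:**
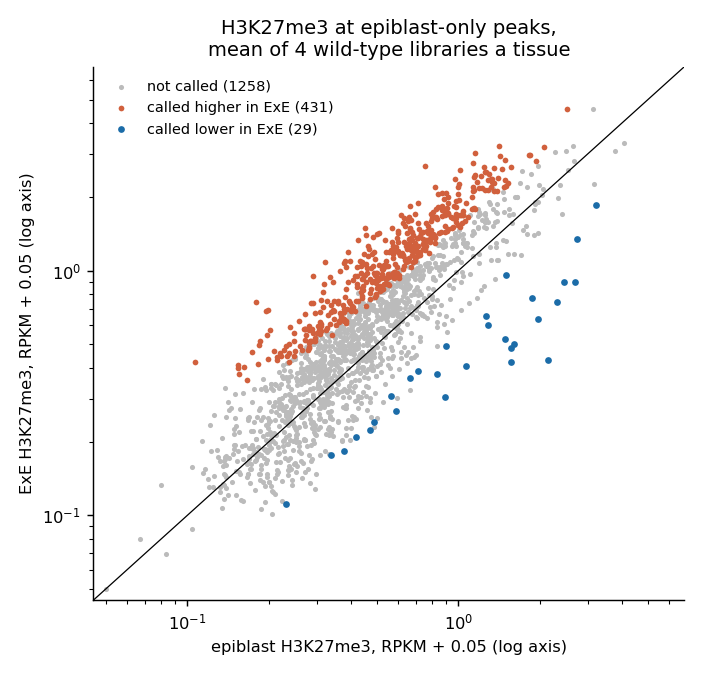
Mean H3K27me3 of the 4 wild-type ExE libraries (vertical axis) against that of the 4 wild-type epiblast libraries (horizontal axis) at each of the 1718 peaks, both as RPKM + 0.05 on log axes, with the line of equality. The 431 peaks called higher in ExE are red and lie along the upper edge of the cloud, and the 29 called lower are blue and lie below it.

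The tissue difference of H3K27me3 in matDKO/CAST was compared with that in wild type. None of the 1718 peaks was called for a larger or a smaller difference (0% of all 33329 epiblast peaks in either direction, limma), while 124 of the 1718 had an unadjusted p under 0.05, against 2706 of all 33329. Leaving out matDKO/CAST epiblast replicate 1 gave 1 and 3 calls, and a model with the replicate number as a block gave 29 and 13. At the centre of the peaks H3K27me3 was 1.12 to 1.21 times the level at 15 to 20 kb in matDKO/CAST ExE and 0.898 to 0.947 times in matDKO/CAST epiblast, so the ranges again did not overlap.

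H3K36me3 was measured over the bodies of 46 protein-coding genes that had a start in an epiblast-only peak and in no other epiblast peak. Their medians were 0.369 RPKM in epiblast and 0.308 in ExE, against 0.513 and 0.595 over 17434 genes, so their median was below that of all genes in both tissues. The limma test called 11 lower in ExE, against 7.75% of all genes, and 1 higher, against 35%. The median log2 difference was -0.13, against 0.11 over all genes, and centring the libraries gave 24 lower and 0 higher.

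At Samd3 H3K36me3 was 0.570 and 0.548 RPKM in B6/CAST epiblast, 0.769 and 0.870 in CAST/B6 epiblast, 0.331 and 0.353 in B6/CAST ExE and 0.387 and 0.332 in CAST/B6 ExE, without overlap (log2 difference -0.47 ± 0.0551, SE, adjusted p = 0.000733, limma). It was the gene with the largest fall, followed by A330070K13Rik (-0.46), Cntnap5a (-0.27), Olfr1033 (-0.26) and Agbl1 (-0.24). In windows outside all H3K4me3 peaks, H3K36me3 was 0.438 to 0.444 RPKM in wild-type epiblast. The epiblast means of Cntnap5a (0.382) and Agbl1 (0.367) lay below that level, and those of Olfr1033 (0.447) and A330070K13Rik (0.455) were near it. The gene called higher was Gbp6, of the interferon-induced guanylate-binding proteins (0.11, adjusted p = 0.0342), with 0.163 ± 0.0199 RPKM in epiblast and 0.216 ± 0.0596 in ExE (SD, n = 4). Its difference was that of the median gene, it came to -0.0020 after centring, and Gbp6 overlaps another gene model and has close relatives that can share reads. Leaving out a library reduced the number lower to between 4 and 8, with 4 without CAST/B6 epiblast replicate 1 or 2 or CAST/B6 ExE replicate 2, 5 without B6/CAST epiblast replicate 2 or either B6/CAST ExE replicate and 7 without CAST/B6 ExE replicate 1.

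Allelic reads, which span a base that differs between B6 and CAST, allowed 564 of the 1718 peaks (32.8%) to be compared between alleles in epiblast, against 61.0% of all epiblast peaks. The minimum was 20 reads in at least 1 of the 8 wild-type columns of maternal or paternal reads, which a peak with reads on 1 allele passes more easily. The median B6 share was 52.9% in B6/CAST, with quartiles of 41.0% and 63.2%, and 51.9% in CAST/B6, with 39.2% and 63.6%. B6 is the mother in the former and the father in the latter, and the B6 share was similar whichever parent carried it.

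Of the 564 informative epiblast-only peaks, 0 had H3K4me3 biased to the same parent in both wild-type crosses, near the 0.108% of all informative peaks, in the edgeR quasi-likelihood test of each cross. The joint test of parent over both crosses also called 0, against 0.197% of all, and 7 of the 564 peaks had an unadjusted p under 0.05, against 227 of all informative peaks. DESeq2 and a model with the library as a block, since maternal and paternal reads of a library come from the same pool, called 0 as well.

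Differences between the strains were found. B6 was higher in both crosses at 3 of 564 peaks (0.532%, against 0.477% of all) and CAST at 4 (0.709%, against 0.364% of all), shares near those of all informative peaks. A joint test of strain over both crosses called B6 higher at 39 (6.91%, against 3.51% of all) and CAST higher at 29 (5.14%, against 2.58% of all). The minimum of 20 reads in 1 column lets a weak peak in through its higher allele. The peak near Sulf1, for example, had 20 reads in 1 B6 column and 0 on CAST. The part of this minimum in the difference from all peaks was not tested. With the library as a block the joint numbers were 83 (14.7%, against 9.75%) and 60 (10.6%, against 7.88%), and those of the separate crosses were 11 and 9. The B6 share was 69.8% to 100% in the 39 peaks and 1.41% to 28.7% in the 29, and 3 peaks of each group had a start site.

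The counts depended on single libraries and on the tool. Without CAST/B6 replicate 2 the joint numbers were 2 and 1, without CAST/B6 replicate 3 they were 15 and 9, without B6/CAST replicate 1 they were 24 and 18, and without B6/CAST replicate 2 CAST was higher at 18. In the separate crosses B6 was higher at 0 without CAST/B6 replicate 2 or 3, CAST was higher at 0 without B6/CAST replicate 1 or CAST/B6 replicate 2 or 3, and DESeq2 called 0 of either kind.

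Of the 7 peaks called in both crosses separately, the one with the most reads lay in an intron of Ralb, a small GTPase (chr1:119485001-119487500). In B6/CAST the maternal B6 allele had 44 and 67 reads and the paternal CAST allele 3 and 6, and in CAST/B6 the paternal B6 allele had 35 and 7 and the maternal CAST allele 4 and 0. B6 was thus higher as mother and as father, with 92.2% of 166 reads (log2 ratio of CAST to B6 -3.42, adjusted p = 2.55e-05, edgeR), a call lost without CAST/B6 replicate 2 (-5.50). An intergenic peak 39955 bp from Pgrmc2 (chr3:41123001-41125500) had 50 and 51 reads on maternal B6 against 0 and 1 on paternal CAST, and 19 and 8 on paternal B6 against 0 and 0 on maternal CAST (99.2% of 129 reads, -6.77, adjusted p = 3.03e-06). The third, 51553 bp from Olfr291 (chr7:84800001-84802000), had 26 and 44 against 0 and 0 and 20 and 10 against 0 and 1 in the same order (99.0% of 101 reads). All 3 lay outside gene starts.

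CAST was higher at a peak 113686 bp from Tmpo (chr10:91295001-91298000), which holds the octamer, with 45 and 48 reads on paternal CAST against 2 and 7 on maternal B6, and 25 and 7 on maternal CAST against 1 and 1 on paternal B6 (8.09% B6 of 136 reads, log2 ratio of CAST to B6 3.62, adjusted p = 5.60e-05, edgeR). Likewise a peak 45728 bp from Rps15a (chr7:118067501-118069500) had 44 and 31 against 6 and 2, and 30 and 18 against 1 and 2 (8.21% of 134 reads). A peak 23424 bp from Atoh8, a basic helix-loop-helix factor (chr6:72259001-72261000), had 37 and 25 against 1 and 3, and 20 and 3 against 0 and 0 (4.49% of 89 reads). The last lay 1017755 bp from the nearest gene start, that of Cdh2, with 4.10% B6 of 122 reads. The calls at Tmpo (3.07), Atoh8 (5.07) and Cdh2 (5.78) were lost without CAST/B6 replicate 2. In matDKO/CAST, where mothers were B6/129, 6 of the 7 peaks were called toward the same strain, and the peak near Olfr291 had no allelic reads.

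**Figure D5:**
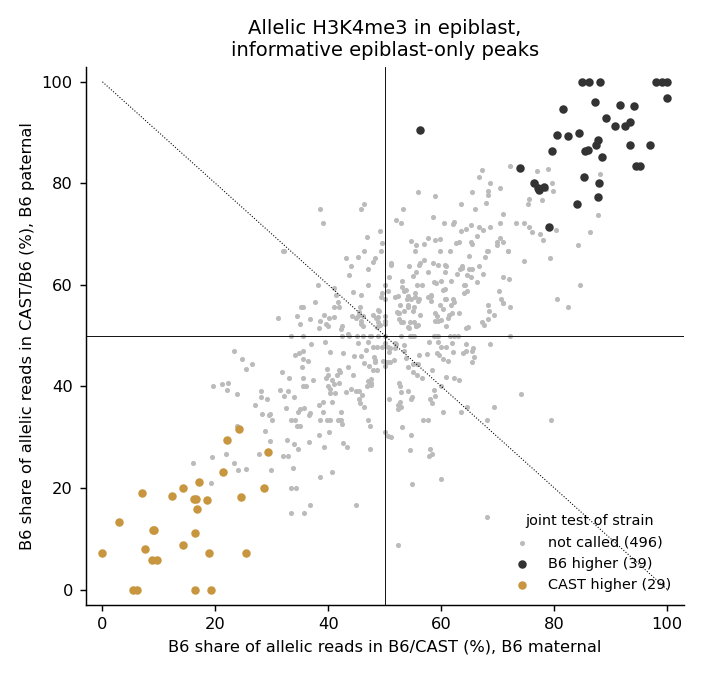
Share of allelic H3K4me3 reads from B6 in CAST/B6 epiblast (vertical axis, percent, B6 as father) against that in B6/CAST epiblast (horizontal axis, percent, B6 as mother) for the 564 informative peaks. The 39 peaks with B6 higher lie at the upper right, at 69.8% to 100% of all reads, the 29 with CAST higher at the lower left, at 1.41% to 28.7%, and a peak biased to 1 parent would lie near the dotted diagonal.

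H3K27me3 in ExE was also measured by allele. Of the 1718 peaks 803 lay over an ExE H3K27me3 peak with enough allelic reads, and these were 732 different H3K27me3 peaks. H3K27me3 was biased to the same parent in both wild-type crosses in 36 of the 732 (4.92%, against 1.35% of 18592 such peaks, edgeR) and to the same strain in 28 (3.83%, against 4.32% of all). Paternal H3K27me3 was higher in 29 of the 36 and maternal in 7, against 209 and 42 of all 251 such imprinted peaks. A total of 41 epiblast-only H3K4me3 peaks lay over the 36, of which 33 were over paternal and 8 over maternal bias.

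H3K27me3 peaks over epiblast-only peaks were long, with a median of 51250 bp against 13500 bp of all, and deeply covered, with a median of 1633.5 allelic reads against 385. All 251 imprinted H3K27me3 peaks were 58500 bp long at the median with 2000 reads, and the 36 over epiblast-only peaks 103250 bp with 3218 reads. Length and coverage thus moved with the call, and their part in the difference between 4.92% and 1.35% was not tested. Counted by H3K4me3 peak, 41 of 803 epiblast-only peaks (5.11%) lay over an imprinted H3K27me3 peak, against 2.97% of all epiblast peaks, 3.85% of those with 1 ExE list and 2.31% of shared peaks. The number of imprinted H3K27me3 peaks was 50 with the library as a block, 15 in DESeq2, 18 without B6/CAST replicate 1, 21 without B6/CAST replicate 2 and 22 without CAST/B6 replicate 1.

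Past a 2-fold ratio were 9 of the 36 H3K27me3 peaks, against 82 of all 251, and most of the 9 lay on the proximal part of chromosome 17. A domain over Arid1b, a chromatin remodelling subunit (chr17:4348501-5146000), drew 80.6% and 80.1% of its allelic reads from the father in B6/CAST ExE and 85.4% and 81.8% in CAST/B6 ExE. A domain over Dact2, an antagonist in Wnt and Nodal signalling (chr17:14181001-14582000), had 79.9%, 79.8%, 80.3% and 79.3% paternal reads in the same order. All 4 libraries were thus paternal in both domains.

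The domain with Tfb1m (chr17:3560001-3614000), which holds the epiblast-only peak of 10000 bp, had 76.3% paternal reads in all, that with Tcp10c (chr17:13468001-13495000) 74.6% and that with Zdhhc14 (chr17:5441001-5789000) 70.5%. On chromosome 7, adjoining domains over Shank2 (chr7:143864001-144350000 and chr7:144353001-144431500), a scaffold protein of synapses, had 74.1% and 72.9%. Maternal bias was found near Dlk1, a paternally expressed imprinted gene, where the H3K27me3 domain (chr12:109247501-109498000) drew 20.3% and 23.7% of its B6/CAST reads from the father, and 22.7% and 24.4% of its CAST/B6 reads, and held 2 epiblast-only peaks. Of the 12 epiblast-only peaks over the 9 domains, 10 were called higher for H3K27me3 in ExE, the tissue in which the domains were listed, against 25.1% of the 1718, and the pair near Dlk1 was not called. Only 4 of the 12 had enough allelic H3K4me3 reads in epiblast to be tested, and none was called for parental bias.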

How the data were processed

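The authors profiled pools of E6.5 epiblast or ExE by native ChIP-seq at ultra low input. Per the submitters' processing notes and the study's methods, reads were trimmed (Trim Galore, 0.4.4 in the notes) and aligned (Bowtie2 2.3.2) to GRCm38 with strain-differing bases masked, and allelic reads were split by strain. The deposited files hold RPKM values in 1 kb windows for each library, H3K4me3 and H3K27me3 peak lists for each cross and tissue, made from both of its libraries together, and allelic read counts per peak for each library. The score column of the peak lists as deposited is 0 throughout, so only positions were used. The names of peaks in the allelic tables were not used, since 21.9% of rows carried a gene name that differed from the one their coordinates gave. 0 columns of per-sample values belonged to no sample of the series.

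A peak's level was the mean RPKM of the windows it overlaps. RPKM steps gave whole reads for 100% of values (tolerance 0.1), and these recovered reads gave the depths stated and an edgeR alternative. Levels were tested with limma 3.58.1 (trend) on log2(RPKM + 0.5), a scale that understates changes at low values, over all 33329 peaks or 17434 genes. The 12 libraries of a mark were fitted as 6 groups sharing 1 spread, and the tissue difference was averaged over the wild-type crosses. For matDKO/CAST H3K4me3 its 4 libraries were fitted alone, and where leaving out a library left 1 sample in a tissue, that sample was assumed to vary like the others. H3K36me3 was averaged over gene bodies from 1 kb after the start, with at least 3 windows. Allelic counts were tested with the edgeR 4.0.16 quasi-likelihood test in each cross and jointly, for peaks with 20 reads in at least 1 wild-type column. Benjamini-Hochberg adjusted p under 0.05 was called. Scripts were tested on simulated data, with R 4.3.3 and Python 3.11.15. Starts, exons and introns came from GENCODE vM21 and sequences from the RefSeq GRCm38.p6 genome. Alternatives were DESeq2 1.42.0, pseudocounts of 0.1 and 1, a filter at 0.25 RPKM, centred libraries, other rules for the set and leaving out each library.

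Replicate numbers were not taken to pair the tissues: deviations of same-numbered libraries correlated at 0.132 and 0.0451 for H3K27me3 and at 0.237 and 0.0614 for H3K36me3. With 2 libraries a group this is a single value for each cross and mark. The alleles of a library are paired by origin, and theirs were 0.574 and 0.258, so a weak correlation cannot exclude pairing.

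The members and gene lists were chosen with earlier results of these data known. Named are list genes with a start in a member peak, up to 8 start-site peaks with the largest change of H3K27me3 each way, the 5 highest and 5 longest peaks, up to 5 strain-specific peaks each way, the 5 largest falls of H3K4me3 in matDKO/CAST ExE, up to 5 genes with changed H3K36me3 each way and 3 peaks on each side of the edge of the rule. The motif, nearest-gene and profile descriptions, the allelic fit of H3K27me3 in ExE and the domains named from it were chosen after seeing the data. Intervals and tests of reads cover no PCR duplication. One domain of allelic H3K27me3 is not reported here.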

Additional observations from a re-analysis of the deposited data

Results flagged for a closer look

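The epiblast-only peak 7532 bp from Lemd2 (chr17:27212001-27213500) had signal in data outside the comparisons: the median of the 15 input libraries was 1.82 RPKM there, above a level of 1 RPKM. It was also the peak with the highest H3K4me3 of the set, and the part that recovery of DNA plays in this level was not tested.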

How the results depend on the processing

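The number of epiblast-only peaks was 5871 when a peak of either epiblast list sufficed and 2744 when at least 50% of a peak had to be covered to remove it. For H3K27me3 in wild type, the number higher in ExE was 231 to 398 without a library, 81 in B6/CAST alone and 175 in CAST/B6 alone, and the number lower was 18 to 48 without a library, 49 with centred libraries, 56 in edgeR, 55 in the fit to 8 wild-type libraries and 11 in B6/CAST alone. With the replicate number as a block, which was not taken to pair the tissues, 572 were higher and 60 lower. The comparison of matDKO/CAST with wild type gave 0 to 1 higher and 0 to 3 lower without a library, and 29 and 13 with the replicate block. For H3K4me3 in matDKO/CAST the number lower was 297 to 1120 without a library. No paired analysis was possible because its epiblast and ExE libraries share only 1 replicate number. For H3K36me3, 4 to 8 genes were lower and 0 to 1 higher without a library, 24 and 0 with centred libraries, 27 and 0 in edgeR, 13 and 0 with the replicate block, and 0 were higher with the filter or over all windows of a gene. For strain differences, each cross alone gave 0 to 3 peaks for B6 and for CAST without a library, 0 in DESeq2, 10 and 9 with no minimum of reads and 11 and 9 with the library as a block, and the joint test gave 2 to 30 and 1 to 18 without a library and 83 and 60 with the block. Imprinted H3K27me3 peaks in ExE numbered 18 to 31 without a library, 50 with the block and 15 in DESeq2. H3K27me3 at Neurod4 turned from 0.018 to -0.025 with centred libraries, to -0.062 in B6/CAST alone and to between -0.11 and 0.14 without a library, and H3K36me3 at Gbp6 to -0.0020 with centred libraries. Of the other values of single peaks and genes under an alternative, 421 kept their direction and side of the threshold, 54 lost the call and 1 gained it (Gli2, 1.03 in edgeR). The causes were not tested. Depth limits single peaks, since 1 H3K27me3 read in a 1 kb window was worth 0.0437 to 0.272 RPKM.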

Other observations

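At 2 epiblast-only peaks matDKO/CAST epiblast was below 25% of every wild-type epiblast library. Near Olfr291 (chr7:84800001-84802000), where nearly all wild-type allelic reads came from B6, H3K4me3 was 1.29, 2.49, 1.14 and 2.02 RPKM in wild-type epiblast and 0.125 and 0 in matDKO/CAST epiblast, while the inputs ranged from 0.233 to 0.622. The intergenic peak nearest to 9030624G23Rik (chr12:23968501-23970000) had 0.783, 0.580, 0.835 and 1.90 RPKM in wild-type epiblast, 0.276 to 0.547 in wild-type ExE and 0 in all matDKO/CAST libraries. It also had 0 in every input and every H3K27me3 library, and it is rich in CpG, with an observed-to-expected ratio of 0.746. Whether reads can be placed there in every library is in doubt, so its 0 in matDKO/CAST is not read as a fall. Both were chosen after seeing the data, and neither difference was tested.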
